A study of Arabidopsis thaliana with 12 samples.

Results

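The comparison described here is that of *pifq* seedlings grown in short days (SD) with *pifq* seedlings moved to continuous light (LL), and it rests on 6 of the 12 arrays of the study, chosen by genotype in the sample titles: 3 *pifq* SD and 3 *pifq* LL. The other 6 arrays, 3 WT SD and 3 WT LL of the Col-0 wild type, were used to set the *pifq* response beside that of seedlings that have all PIFs. Each array measured total RNA of whole *Arabidopsis thaliana* seedlings of 3 days, grown without sucrose in the growth medium, on an Affymetrix AraGene 1.0 ST array. In SD, white light of 85 µmol per square metre and second was on for 8 h of each day, and the other 16 h were dark. All seedlings spent their first days in SD. SD seedlings then had a further SD day and were sampled at the end of its night, at 24 h, whereas LL seedlings stayed in the light and were sampled at the same hour. SD and LL seedlings therefore differed in the night before harvest, in the light at harvest and in the light received over the last day, and these cannot be told apart. The *pifq* mutant lacks the function of *PIF1*, *PIF3*, *PIF4* and also *PIF5* in all its cells, so that a response seen in it is one that does not need these 4 factors.

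PIFs are basic helix-loop-helix transcription factors that accumulate in the dark, are removed when phytochromes are activated by light, and promote hypocotyl growth towards the end of a long night. A night has other consequences that do not pass through PIFs: photosynthesis stops, starch is broken down, a carbon shortage leads cells to use amino acids as a fuel, and the circadian clock keeps time. Whole seedlings mix all tissues, so that fewer cells of a type and less RNA per cell cannot be told apart in any of the values below.

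The genotype could be followed on 3 of the mutated genes. The log2 signal of *PIF3* was 3.10 to 3.98 on the 6 *pifq* arrays and 7.10 to 7.73 on the 6 WT arrays. That of *PIF5*, annotated as *PIL6*, was 5.51 to 6.70 in *pifq* and 9.45 to 10 in WT, and that of *PIF1*, annotated as *PIL5*, was 6.12 to 6.83 and 8.07 to 8.58. All 6 *pifq* arrays were thus below all 6 WT arrays for each gene, and *PIF4* had no named probe set here. None of these transcripts differed by the test between *pifq* SD and *pifq* LL (log2 fold change of -0.17 for *PIF3*, -0.54 for *PIL6* and 0.44 for *PIL5*). Arrays of the same *pifq* group correlated by 0.965 to 0.976. On the first principal component of all arrays (22.3% of the variance), *pifq* SD replicate 2 lay at -60.3 and WT SD replicate 2 at -64.9, against -26.2 to -10.0 for the other SD arrays and 25.9 to 41.8 for the LL arrays. Among probe sets called lower in *pifq* SD, *pifq* SD replicate 2 held the lowest of the 3 SD values in 65.5% (40.6% over all tested probe sets), and among those called higher, replicate 1 held the lowest in 66.1% (32.4% over all). The part of this spread in the results was not tested, and counts without each array are given where they move. Of the tissue markers examined, *RCA* (mesophyll), *EXPA7* (root hair), *FAMA* and *KAT1* (guard cell), *PDF1* (epidermis) and *BETA-TIP* (seed) had a named probe set, whereas root, phloem and xylem markers had none.

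The table holds 98 control probe sets and 197 that duplicate a gene with a brighter probe set. The remaining 38113 were tested with limma on the log2 values that the authors made with RMA. Of the 38113, 7109 share all 12 values with another, and they count in each share given over all tested probe sets. Called here means an adjusted p (Benjamini-Hochberg) below 0.05 together with at least a 1.5 fold difference. In *pifq* SD relative to *pifq* LL, 682 probe sets rose and 716 fell, 1398 or 3.67% of those tested (1.79% higher and 1.88% lower). On each of the 1398, the 3 SD arrays lay entirely above or below the 3 LL arrays, which held for 21.9% of all tested probe sets. Of the rises, 210 exceeded 2 fold and 13 exceeded 4 fold, and of the falls 270 and 37 did. The typical change over all tested probe sets was a log2 fold change of -0.0147. In total 1011 of the called probe sets carry 1 gene name, 436 among the rises and 575 among the falls. Another 387 have none, among them the probe set with the largest rise of all (log2 fold change 3.89). The count rests on the spread pooled over all 12 arrays: with the 6 *pifq* arrays fitted alone, 82 rose and 107 fell, 188 of them among the 1398. It fell to 361 rises and 473 falls without *pifq* SD replicate 3, to 457 and 455 without *pifq* LL replicate 2, and to 475 and 471 without *pifq* SD replicate 2. The array has 23 background control probe sets, whose median over the 12 arrays was 5.22 and whose highest mean was 9.0, so that there is no single floor. Both *pifq* group means lay under 5.22 for 50.6% of the tested probe sets and for 145 of the 1398 (10.4%). Of the genes named below as called in *pifq*, these were *ATL8*, *ELF4*, *IAA19*, *LHCB4.3* and *RUP2*, and whether their signals were above background was not tested.

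The *pifq* response largely went in the direction of the WT response, which was measured on arrays of its own. Deviations of SD arrays with the same replicate number were, however, positively correlated between the genotypes (0.147, 0.348 and 0.0805). The part of this in the likeness below was not tested. WT SD relative to WT LL gave 2513 called probe sets (6.59% of those tested), 1206 higher (3.16%) and 1307 lower (3.43%). Both genotypes shared 468 rises and 483 falls, together 68.0% of the *pifq* list and 37.8% of the WT list. Of the 682 rises in *pifq*, 645 had the same sign in WT, and of the 716 falls 668 had, that is 94.6% and 93.3% beside 67.0% over all tested probe sets. Over the 1398 probe sets called in *pifq*, the changes of both genotypes correlated with Pearson's r at 0.861 and Spearman's rho at 0.833, against 0.456 and 0.433 over all 38113 (across probe sets, which are not independent replicates). The size was alike for genes chosen in *pifq*: their median log2 fold change was 0.82 for rises in *pifq* and 0.82 in WT, and -0.87 for falls in *pifq* and -0.91 in WT. For the genes chosen in WT it was smaller in *pifq*, at 0.54 beside 0.87 for the WT rises and -0.56 beside -0.90 for the WT falls. A list chosen on one genotype favours large values in that genotype, and the lists differ in length (1398 and 2513). The part of this choice in the medians was not tested.

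**Figure D1:**
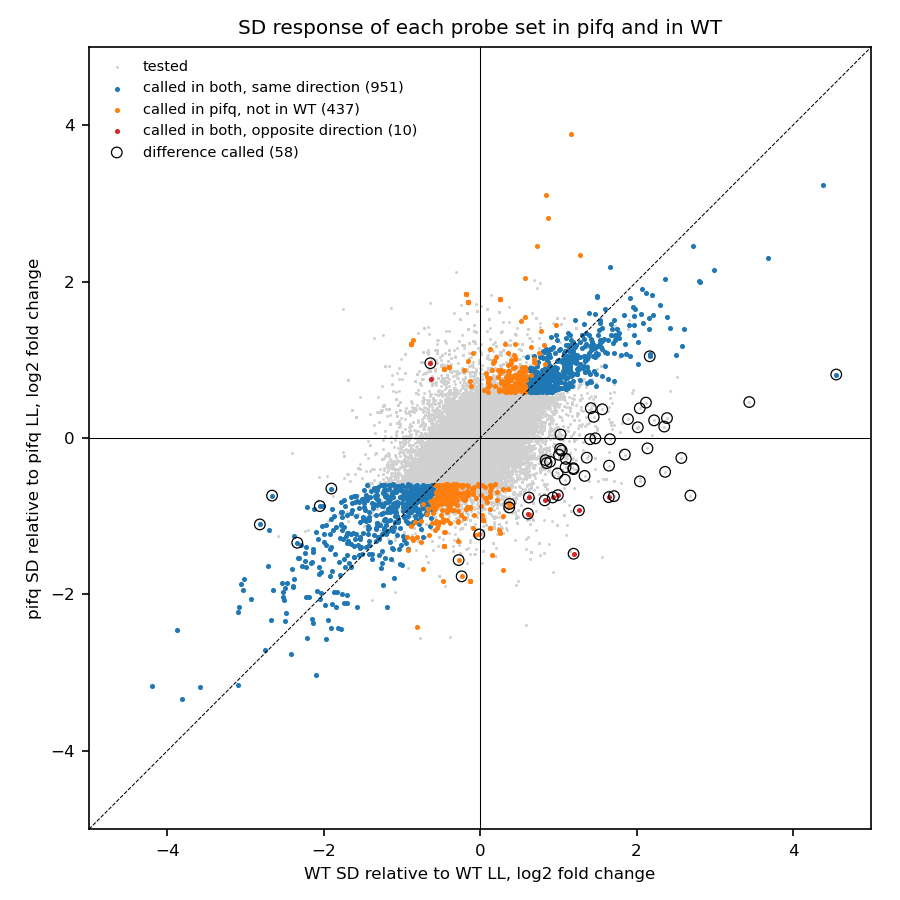
Log2 fold change of SD relative to LL in WT (horizontal axis) and in *pifq* (vertical axis) for each of the 38113 tested probe sets, with colours for the 951 called in both genotypes in the same direction, the 437 called in *pifq* but not in WT and the 10 called in opposite directions, and black rings for the 58 whose difference between genotypes was called. The blue points share a sign in both genotypes because they were chosen so, and they do not measure how equal the changes are. Most rings lie right of the dashed line of equal change and near or below 0 on the *pifq* axis.

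Genes for the breakdown of amino acids were among the rises. *BCAT-2* (AT1G10070), a branched-chain amino acid aminotransferase, had log2 signals of 10.84, 11.57 and 11.53 on the *pifq* SD arrays and 8.14, 8.02 and 8.06 on the *pifq* LL arrays. The SD arrays stood far above the LL arrays with no overlap, a log2 fold change of 3.24 ± 0.22 (adjusted p = 0.000104; errors are SE with 3 arrays in each group), and it was the largest rise of a named gene. *MCCB* (AT4G34030), the beta subunit of methylcrotonyl-CoA carboxylase in leucine breakdown, had 9.28, 9.87 and 9.89 in SD and 7.89, 7.60 and 7.44 in LL. Its log2 fold change was 2.03 ± 0.18 (adjusted p = 0.000355). *AT1G21400* had 9.92, 10.49 and 10.41 in SD and 8.46, 8.23 and 8.13 in LL. It rose by a log2 fold change of 2.0 ± 0.19 (adjusted p = 0.000452), so that on all 3 genes the lowest SD array was at least 1 log2 unit above the highest LL array.

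Of the 28 genes on a list of dark-induced and starvation genes, 17 had a named probe set, and 15 of these rose, none fell and 2 did not pass, with a median log2 fold change of 1.23 (5.76% were called over all named probe sets, in either direction). In WT, 16 of the 17 rose, with a median of 1.54. *ASN1* (AT3G47340), an asparagine synthetase that stores nitrogen when carbon is short, had 12.57, 12.82 and 12.66 in SD and 11.47, 11.48 and 11.43 in LL (log2 fold change 1.23 ± 0.13, adjusted p = 0.000679). *LKR* (AT4G33150), which opens lysine breakdown, had 9.44, 9.87 and 9.89 in SD and 8.43, 8.46 and 8.57 in LL (1.25 ± 0.13, adjusted p = 0.000777). SD replicate 1 was the lowest of the SD arrays for *BCAT-2*, *MCCB*, *ASN1* and *LKR* and still above each LL array. Among the others that rose, *DIN3* (1.32) and *IVD* (1.39) act in branched-chain amino acid oxidation, *PRODH1* (1.12) in proline oxidation, *GDH1* (1.34) and *GDH2* (1.12) in glutamate deamination, and *ETFQO* (0.90) passes electrons to the respiratory chain. *PPDK* (1.59), *BGLU30* (1.4), *MIOX2* (1.21), *ATL8* (0.89) and *AKINBETA1* (0.88), a subunit of the SnRK1 energy-sensing kinase, completed the list. The 2 that did not pass were *DRM1*, with a log2 fold change of 0.32 (adjusted p = 0.216) beside 1.25 in WT, and *D2HGDH*, with 0.18 (adjusted p = 0.599) beside 0.28. The difference of the response between genotypes was called for none of the 17, and 3 had an unadjusted p under 0.05 (2507 of 38113 over all tested probe sets), all lower in *pifq*. Of the 7 members named by the platform annotation 6 rose; the other 10 were named through the data sheet of the study, which lists genes that the authors had called, so that members named there are called more often than others. With the 6 *pifq* arrays alone, *BCAT-2*, *DIN3*, *IVD*, *ASN1*, *MCCB*, *PPDK* and *LKR* stayed called, and the others had an adjusted p of 0.0515 to 0.107. The call of *ATL8* was lost without any of 6 arrays (adjusted p 0.0545 to 0.109).

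Autophagy, the bulk degradation of cell contents that also feeds respiration in starved cells, was followed through the *ATG8* family, whose proteins coat the forming autophagosome. Of 9 measured members 3 rose and none fell, with a median of 0.43, and the same count was reached in WT (median 0.52). All 9 were named by the platform annotation, and 3.82% of all probe sets that it names were called in *pifq*. *ATG8E* (AT2G45170) had 8.31, 8.26 and 8.28 in SD and 7.57, 7.31 and 7.67 in LL (log2 fold change 0.77 ± 0.12, adjusted p = 0.0072). *ATG8F* (AT4G16520) had 10.74, 10.90 and 10.79 in SD and 10.16, 10.20 and 10.09 in LL (0.66 ± 0.11, adjusted p = 0.00649). SD arrays were above LL arrays for both, by less than for the amino acid genes. *ATG8B* rose by 0.64 (adjusted p = 0.0231, lost without any of 5 arrays at 0.0653 to 0.0896). *ATG8G* (0.73, adjusted p = 0.113) and *ATG8A* (0.43, adjusted p = 0.164) had the largest changes among the 6 that did not pass. With the *pifq* arrays alone, none of the 3 calls remained (adjusted p 0.102 to 0.164).

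Other large rises were of mixed function. *BCB* (AT5G20230), a blue copper-binding protein, had 8.52, 9.80 and 9.51 in SD and 6.24, 6.70 and 6.45 in LL, a log2 fold change of 2.81 ± 0.32 (adjusted p = 0.00119). In WT the signals were 6.84, 7.65 and 7.54 in SD and 6.64, 6.26 and 6.5 in LL, a change of 0.87 (adjusted p = 0.146). All SD arrays of *pifq* were above all other arrays, but the difference of the responses, 1.94 with a 95% confidence interval of 0.94 to 2.94, did not pass (adjusted p = 0.191). *BETA-TIP* (AT1G17810), a water channel of the vacuole known from seeds, had 8.07, 9.30 and 9.01 in SD and 6.30, 6.49 and 6.22 in LL (2.46 ± 0.29, adjusted p = 0.00128), with 2.73 in WT. It is the 1 of 12 seed markers with a named probe set, and the part of seed tissue in its rise was not tested. *AT1G19540* (2.15), *AT5G14470* (2.0), annotated as a GHMP kinase, *AT4G01870* (1.90) and the beta-glucosidase gene *BGLU11* (1.85) rose as well, each also called in WT. *BGLU11* and *AT5G14470* were not called with the *pifq* arrays alone (adjusted p = 0.074 and 0.0718).

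**Figure D2:**
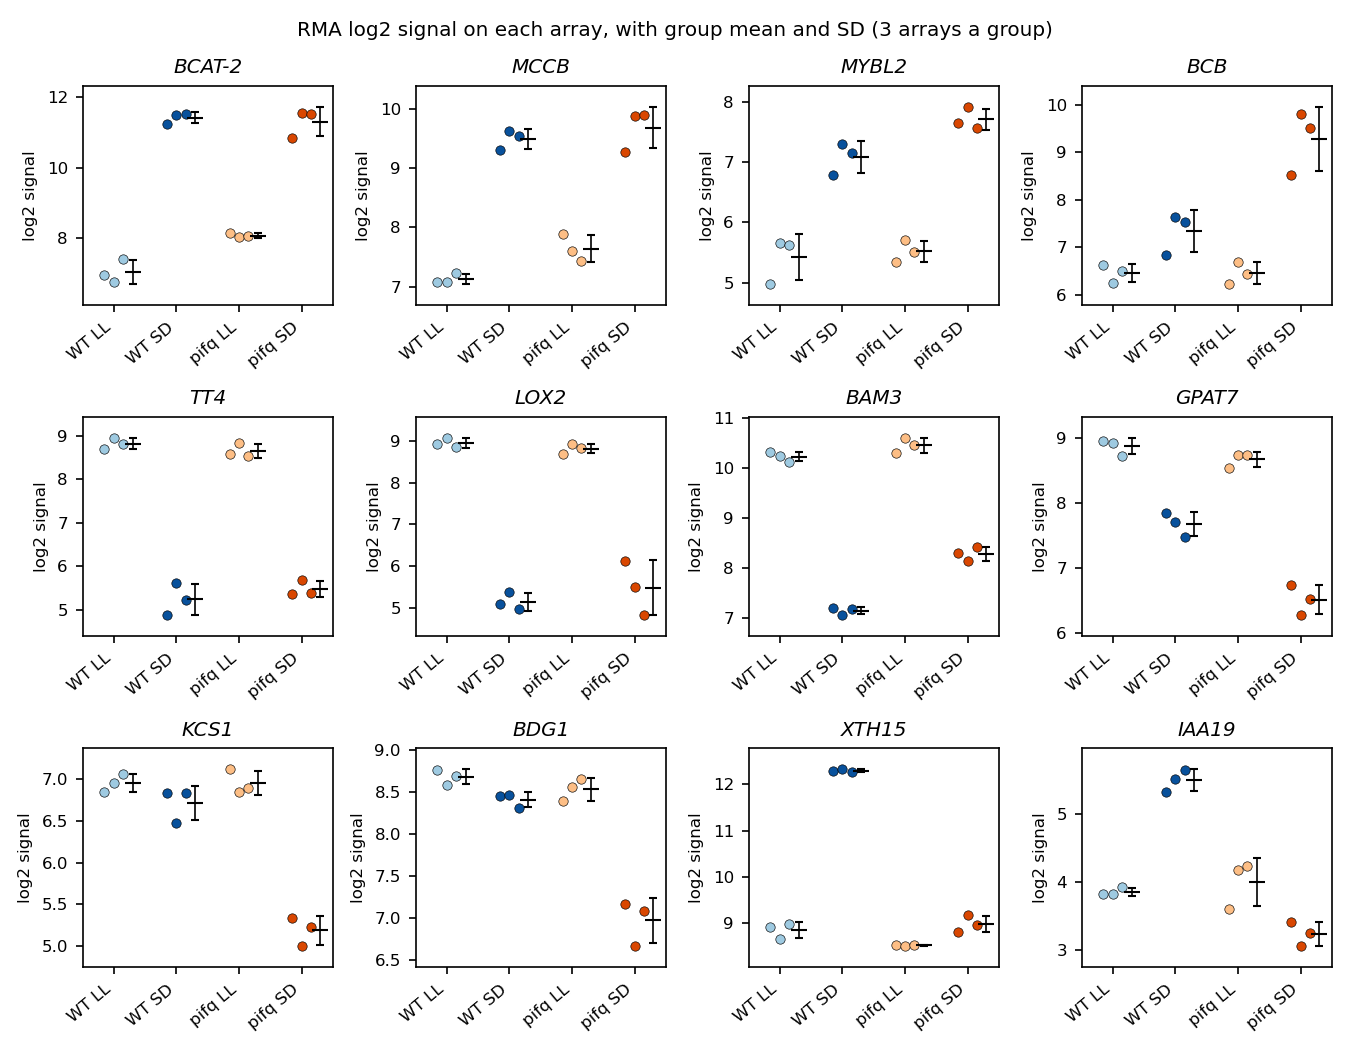
RMA log2 signal (vertical axis, one scale per gene) on each of the 12 arrays for 12 genes, with points for arrays and a bar for the mean and SD of the 3 arrays of a group. *BCAT-2*, *MCCB*, *TT4* and *LOX2* moved in both genotypes, *KCS1* and *BDG1* were low on the *pifq* SD arrays alone, and *XTH15* was high on the WT SD arrays alone.

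Genes of flavonoid synthesis were among those that fell. Of 26 listed genes 13 were measured: 7 fell, 1 rose and 5 did not pass, with a median log2 fold change of -0.87 (5.76% were called over all named probe sets). *TT4* (AT5G13930), chalcone synthase, which makes the first flavonoid of the pathway, had 5.35, 5.68 and 5.37 in SD and 8.58, 8.82 and 8.53 in LL. It fell by 3.18 on the log2 scale (SE 0.18, adjusted p = 3.31e-05). *F3H* (AT3G51240), flavanone 3-hydroxylase, had 5.30, 5.62 and 5.33 in SD and 7.89, 7.75 and 7.61 in LL (log2 fold change -2.34 ± 0.14, adjusted p = 3.67e-05). Other members of the list fell too, each with SD arrays below LL arrays: *TT5*, chalcone isomerase (-0.90, adjusted p = 0.00861), *FLS1*, flavonol synthase (-1.23, adjusted p = 0.0106), *DFR*, which leads to anthocyanins (-2.37, adjusted p = 0.0138), *4CL3* (-1.49) and *TT7* (-0.68). The 1 rise was that of *MYBL2* (AT1G71030), a single-repeat MYB protein known as a repressor of the pathway. It had 7.64, 7.91 and 7.57 in SD and 5.35, 5.70 and 5.51 in LL (2.19 ± 0.21, adjusted p = 0.000452). In WT 8 members fell and 1 rose, with a median of -0.88, and no difference between genotypes was called. The general phenylpropanoid genes *PAL1* (-0.87, adjusted p = 0.102) and *PAL2* (-0.43, adjusted p = 0.245) did not pass. Of the 4 members that the platform annotation names, 1 fell. The calls of *4CL3* and *TT7* were lost without any of 9 and 10 arrays (adjusted p 0.0636 to 0.116 and 0.053 to 0.152), and with the *pifq* arrays alone *TT4*, *F3H* and *MYBL2* remained, with 0.0505 to 0.181 for the others.

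The largest fall of a named gene was that of *LOX2* (AT3G45140), a chloroplast lipoxygenase of jasmonate synthesis. It had 6.13, 5.50 and 4.83 in SD and 8.70, 8.93 and 8.83 in LL, a log2 fold change of -3.34 ± 0.27 (adjusted p = 0.000234). The SD arrays spread more widely than the LL arrays and all lay below them. Of 4 measured jasmonate genes it was the 1 that fell; *JMT* (-0.72, adjusted p = 0.202) and *AOS* (-0.65, adjusted p = 0.0804) came next in size, and the list median was -0.68 in *pifq* and -0.79 in WT, where 3 fell.

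The other named genes with the largest falls were of several kinds. *AT4G38080*, annotated as a hydroxyproline-rich glycoprotein, had 7.94, 7.75 and 7.61 in SD and 10.38, 10.64 and 10.57 in LL (log2 fold change -2.76 ± 0.12, adjusted p = 1.06e-05). *AT2G22510*, of the same annotation, had 3.96, 3.36 and 3.91 in SD and 6.96, 7.08 and 6.68 in LL (-3.16 ± 0.18, adjusted p = 3.31e-05). *PELPK2* (AT5G09520), a repeat protein of the cell wall whose near copy *PELPK1* lies beside it, had 8.78, 8.21 and 8.23 in SD and 11.45, 11.32 and 11.55 in LL (-3.04 ± 0.16, adjusted p = 2.94e-05). For all 3 the gap between the groups was over 2 log2 units. *AT1G60590*, annotated as pectin lyase-like, fell with a log2 fold change of -2.72 and the ABC transporter gene *ABCG23* of -2.55, and *AT2G15020*, without annotation here, of -3.17. *SAHH2* (AT3G23810), S-adenosylhomocysteine hydrolase of the methyl cycle, had 5.64, 4.23 and 6.09 in SD and 7.81, 8.02 and 7.82 in LL (-2.57 ± 0.45, adjusted p = 0.0103), with a wider spread on the SD arrays. These 7 genes also fell in WT, by log2 fold changes of -1.97 for *SAHH2* to -4.19 for *AT2G15020*, and *SAHH2* was not called with the *pifq* arrays alone (adjusted p = 0.0947).

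Starch and plastid carbon export genes moved in part. Of 17 measured members 7 fell, 1 rose and 9 did not pass (median -0.52), beside 11 falls and 1 rise in WT (median -0.71). Over all named probe sets 5.76% were called in *pifq*. *BAM3* (AT4G17090), the chloroplast beta-amylase that releases maltose from starch, had 8.30, 8.14 and 8.42 in SD and 10.30, 10.59 and 10.46 in LL (log2 fold change -2.17 ± 0.12, adjusted p = 2.94e-05). *PPT2* (AT3G01550), which carries phosphoenolpyruvate across the plastid envelope, had 6.31, 6.30 and 5.74 in SD and 8.55, 8.65 and 8.54 in LL (-2.46 ± 0.17, adjusted p = 0.000104). *GBSS1* (AT1G32900), which makes amylose, had 7.67, 7.33 and 7.59 in SD and 8.63, 8.91 and 8.74 in LL (-1.23 ± 0.12, adjusted p = 0.000617). All 3 fell without overlap, and their WT changes were larger in size: -3.08, -3.87 and -2.0, with differences of 0.92, 1.41 and 0.77 that did not pass (adjusted p = 0.0895, 0.0652 and 0.175). *APS1*, the small subunit of ADP-glucose pyrophosphorylase, fell with -0.66, and the starch synthase genes *SS2* and *SS4* with -0.68 and -0.79, and *PWD*, a starch-phosphorylating dikinase, with -0.65. *BAM4*, a beta-amylase-like protein without known catalytic activity, rose by 1.10 (adjusted p = 0.00212), and *DPE2* (-0.56, adjusted p = 0.141) was the largest change that failed the adjusted p. Calls were lost without any of 3 arrays for *SS2* (0.0511 to 0.0588) and *PWD* (0.0722 to 0.0864) and any of 8 for *SS4* (0.0515 to 0.115), and with the *pifq* arrays alone *BAM3*, *PPT2* and *GBSS1* remained, with 0.0718 to 0.189 for the other 5.

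Nitrate and sulfate assimilation genes fell as far as they passed. Of 7 measured members 4 fell and none rose, all 7 were lower, and the median was -0.80 beside -1.58 in WT, where 6 fell. Over all named probe sets 5.76% were called in *pifq*. All 7 were named through the data sheet of the study. The adenylylsulfate reductase genes, whose enzymes commit sulfate to reduction, made up 3 of the 4. *APR2* (AT1G62180) had 5.94, 5.34 and 5.09 in SD and 6.61, 6.99 and 7.17 in LL (log2 fold change -1.47 ± 0.22, adjusted p = 0.00504). *APR1* fell with -1.37 (adjusted p = 0.0153) and *APR3* with -1.35 (adjusted p = 0.0449), and the asparagine synthetase gene *ASN2* (AT5G65010) with -0.80 (adjusted p = 0.00982), while its relative *ASN1* rose. *GLU1*, the ferredoxin-dependent glutamate synthase, passed the adjusted p (0.0083) but at -0.57 not the fold, and the nitrate transporter gene *NRT1.1* had -0.43 (adjusted p = 0.0806). *APR3* was lost without any of 11 arrays (0.0558 to 0.142) and *APR1* without any of 3 (0.0542 to 0.059), and all 4 were lost with the *pifq* arrays alone (0.0949 to 0.229).

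Genes of cutin, suberin and wax had the lowest list median in *pifq*, -1.49, beside -1.04 in WT. Of 8 measured members 6 fell, none rose and 2 did not pass, whereas in WT 4 fell and 2 rose. Over all named probe sets 5.76% were called in *pifq*, and all 8 were named through the data sheet of the study. *GPAT7* (AT5G06090), a glycerol-phosphate acyltransferase, had 6.74, 6.28 and 6.53 in SD and 8.54, 8.74 and 8.74 in LL (log2 fold change -2.16 ± 0.15, adjusted p = 0.000117). *CYP86A1* (AT5G58860), a fatty acid hydroxylase of root suberin, had 4.27, 4.22 and 4.32 in SD and 6.16, 5.89 and 5.99 in LL (-1.75 ± 0.15, adjusted p = 0.000317). *KCS2* (AT1G04220), which elongates fatty acids, had 7.38, 6.83 and 7.05 in SD and 8.66, 8.69 and 8.73 in LL (-1.61 ± 0.14, adjusted p = 0.000317). These 3 fell with no overlap between groups, and fell in WT as well, with -1.19 for *GPAT7*, -1.80 for *CYP86A1* and -1.03 for *KCS2*. *LACS2*, an acyl-CoA synthetase of cutin synthesis, fell with -1.37 in *pifq* and -1.56 in WT. *KCS1* and *CYP86A4* had another response in WT and are given below with the differences. *GPAT6* (-0.44, adjusted p = 0.558) and *LTP2* (0.23, adjusted p = 0.451) did not pass. *PDF1* (AT2G42840), a marker of the epidermis, the layer that makes cutin, had 9.13, 8.52 and 8.92 in SD and 10.03, 9.72 and 9.76 in LL (-0.98 ± 0.17, adjusted p = 0.0105), and 0.03 in WT. It was the 1 of 3 epidermis markers measured, and its part in the cutin genes was not tested; its difference between genotypes, -1.01, did not pass (adjusted p = 0.214). With the *pifq* arrays alone *PDF1*, *LACS2* and *CYP86A4* were not called (0.118, 0.0767 and 0.141).

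Clock and photoperiod genes were divided. Of 14 measured 7 fell, 1 rose and 6 did not pass, beside 11 falls and 2 rises in WT, and the median was -0.53 beside -0.80. Over all named probe sets 5.76% were called in *pifq*. *ELF4* (AT2G40080), a component of the evening complex, had 3.48, 3.48 and 3.63 in SD and 5.18, 5.21 and 4.63 in LL (log2 fold change -1.48 ± 0.19, adjusted p = 0.00243). *GI* (AT1G22770) had 6.18, 5.78 and 5.90 in SD and 6.85, 6.92 and 6.76 in LL (-0.89 ± 0.12, adjusted p = 0.00356). Both were as far below LL in WT (-1.38 and -0.83). *RVE2* (AT5G37260), a MYB-like factor related to *CCA1*, had 9.25, 9.23 and 9.31 in SD and 11.04, 10.80 and 10.74 in LL (-1.60 ± 0.12, adjusted p = 0.000131). *RVE7* (AT1G18330), of the same family, went the other way, with 8.34, 8.46 and 8.48 in SD and 6.98, 7.23 and 7.18 in LL (1.30 ± 0.12, adjusted p = 0.000458). *GRP7*, an RNA-binding protein under clock control, fell with -1.02, *CDF1* with -1.03, *PRR5* with -0.76 and *RVE6* with -0.65.

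The other 6 members of the list did not pass in *pifq*. *CCA1* (AT2G46830), a core clock repressor that peaks at dawn, had 10.54, 10.45 and 10.75 in *pifq* SD and 10.68, 10.56 and 10.76 in *pifq* LL. These overlap, with a log2 fold change of -0.08 (95% confidence interval -0.33 to 0.16), and in WT the change was -0.69 (adjusted p = 0.00313). *RVE1* had -0.25 beside -0.78 in WT, *LNK1* 0.25 beside -0.74, *COL2* -0.40 beside -1.23, and *RVE8* 0.04 beside -0.54, the last not called in WT either. The differences of these 5 were positive, 0.53 to 0.98, and none passed (adjusted p 0.214 to 0.412). *CDF5* had 0.00 beside 0.96 in WT (difference -0.96, adjusted p = 0.0872). Calls were lost without any of 5 arrays for *PRR5* (0.051 to 0.0932) and for *RVE6* (0.0505 to 0.0774) and any of 4 for *CDF1* (0.0805 to 0.101), and with the *pifq* arrays alone *ELF4*, *RVE2* and *RVE7* remained, with 0.0863 to 0.153 for the other 5.

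Of the genes of the photosynthetic machinery, those of light harvesting, chlorophyll synthesis and the Calvin cycle were called in *pifq* for 1 of 16, 2 of 17 and 1 of 9, beside 5.76% over all named probe sets. Of 16 light harvesting and photosystem genes 1 fell and none rose (median -0.24), beside 8 falls in WT (median -0.64). The 1 was *LHCB4.3* (AT2G40100), an antenna protein of photosystem II, with 3.98, 4.23 and 4.11 in SD and 4.88, 5.46 and 4.88 in LL (log2 fold change -0.97 ± 0.20, adjusted p = 0.0251). *LHCB7* (-0.54, adjusted p = 0.0735) and *PSBS* (-0.44, adjusted p = 0.0636) were next, and *RCA*, Rubisco activase and the mesophyll marker, stayed at 12.86 to 12.99 in SD and 13.09 to 13.20 in LL (-0.21, adjusted p = 0.276). Of 17 genes of chlorophyll synthesis and chloroplast regulation 2 fell (median -0.20), beside 11 falls and 1 rise in WT (median -0.69). They were *PORC* (AT1G03630), a light-dependent protochlorophyllide reductase, with 7.76, 6.83 and 7.58 in SD and 8.54, 8.53 and 8.45 in LL (-1.12 ± 0.23, adjusted p = 0.0245), and *CGA1*, a GATA factor of chloroplast development (-0.92, adjusted p = 0.0403). *HEMA1* (0.03 in *pifq*, -0.60 in WT) and *GLK2* (0.04 and -0.66) are examples with no change in *pifq* beyond the spread and a fall in WT; *DVR* had -0.76 (adjusted p = 0.0577) and *PORA* 0.60 (adjusted p = 0.311, 2.42 in WT).

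Of 8 carotenoid genes 3 fell (median -0.41; 6 in WT, median -1.05), namely *ZEP* (AT5G67030), zeaxanthin epoxidase, with -0.83 ± 0.13 (adjusted p = 0.00658), *LCYE* with -0.89 (adjusted p = 0.0179) and *BCH2* with -0.66 (adjusted p = 0.0417). *PSY*, phytoene synthase, the entry to the pathway, passed the adjusted p (0.0385) but not the fold at -0.45, and *PDS* had -0.38 (adjusted p = 0.0677). Of 9 Calvin cycle genes 1 fell (median -0.30; 7 in WT, median -0.67), *CP12-2* (AT3G62410), which holds 2 enzymes of the cycle inactive in the dark, with -0.79 ± 0.16 (adjusted p = 0.0189). *PGK1* had -0.47 (adjusted p = 0.0413, below the fold) and *GAPA2* -0.42 (adjusted p = 0.213). Of 4 plastid fatty acid genes 2 fell (median -0.36; 4 in WT, median -1.28), *FAD8* with -0.87 (adjusted p = 0.00364) and *FADA* with -0.65 (adjusted p = 0.0117). *FAD5* (0.21) and *ACP4* (-0.07) did not pass. Over these 5 lists, the difference between genotypes had an unadjusted p under 0.05 for 4 of 16, 10 of 17, 6 of 8, 4 of 9 and 4 of 4 members, all but 1 with the higher value in *pifq*, and was called for 1, *FADA*. Over all tested probe sets, 2507 of 38113 had such a p. The platform annotation named 9, 5, 0, 3 and 0 of these members, in the same order. The rest were named through the data sheet of the study. That sheet lists genes that the authors had called between WT SD and WT LL or between *pifq* SD and WT SD, which favours these counts. *RBCS1B* and *LHCB1.2* have near-identical copies and are uncertain as single genes. Calls were lost without any of 4 arrays for *LHCB4.3* (0.0553 to 0.0799) and *PORC* (0.0532 to 0.0787), any of 9 for *CGA1* (0.0542 to 0.107), any of 3 for *LCYE* (0.0599 to 0.0669) and *CP12-2* (0.0511 to 0.062), any of 11 for *BCH2* (0.054 to 0.125) and *pifq* SD replicate 2 for *FADA*, which then missed the fold (adjusted p 0.0434), and all named here were lost with the *pifq* arrays alone (0.0661 to 0.225).

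Among smaller lists, 2 of 12 photoreceptor and light signalling genes fell and none rose, beside 7 falls and 4 rises in WT; with arrays centred on their medians *PHYA* (0.61, adjusted p = 0.0376) and *FHY1* (0.97, adjusted p = 0.0458) also rose. *SPA4* (AT1G53090), a partner of the COP1 ubiquitin ligase, had 5.87, 5.83 and 6.10 in SD and 6.62, 6.98 and 6.68 in LL (log2 fold change -0.83 ± 0.14, adjusted p = 0.0077), and *RUP2* fell with -0.74 (adjusted p = 0.0225). *PHYA*, which accumulates in darkness in WT, had 8.70, 9.10 and 8.92 in SD and 8.30, 8.32 and 8.36 in LL, so that the groups were apart, but its change of 0.58 was just under the fold (adjusted p = 0.0439; 1.66 in WT, difference -1.08, adjusted p = 0.0858). *FHY1*, needed for the nuclear import of phytochrome A, had 0.94 (adjusted p = 0.0515). Its homologue *FHL* had 0.38 beside 2.04 in WT, and this difference of -1.66 passed (adjusted p = 0.0155). The *pifq* means of *FHL*, 5.07 in SD and 4.69 in LL, lay under the background control median of 5.22. Of 6 abscisic acid and cold response genes 2 fell (3 in WT): *RD29B* (AT5G52300) had 6.69, 6.58 and 6.70 in SD and 8.09, 8.14 and 8.40 in LL (-1.55 ± 0.13, adjusted p = 0.000235), and *KIN2*, whose near copy *KIN1* was not called, had -1.23 (adjusted p = 0.0067). Of 6 sugar transporter genes *SWEET11* was measured, with -0.05. Counted over members that the platform annotation names, 1 of 5 starch, 2 of 3 clock, 1 of 9 light harvesting, 1 of 5 abscisic acid and cold and 1 of 9 expansin and xyloglucan genes fell, and none of 5 chlorophyll, 3 Calvin cycle and 5 shade and auxin genes was called, beside 3.82% called over all probe sets that it names and 5.76% over all named ones. *RUP2* was lost without any of 5 arrays (0.0516 to 0.0842), *FHL* for the difference without any of 6 (0.0508 to 0.0695), and with the *pifq* arrays alone *SPA4*, *RUP2* and *KIN2* were not called (0.0949 to 0.179).

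**Figure D3:**
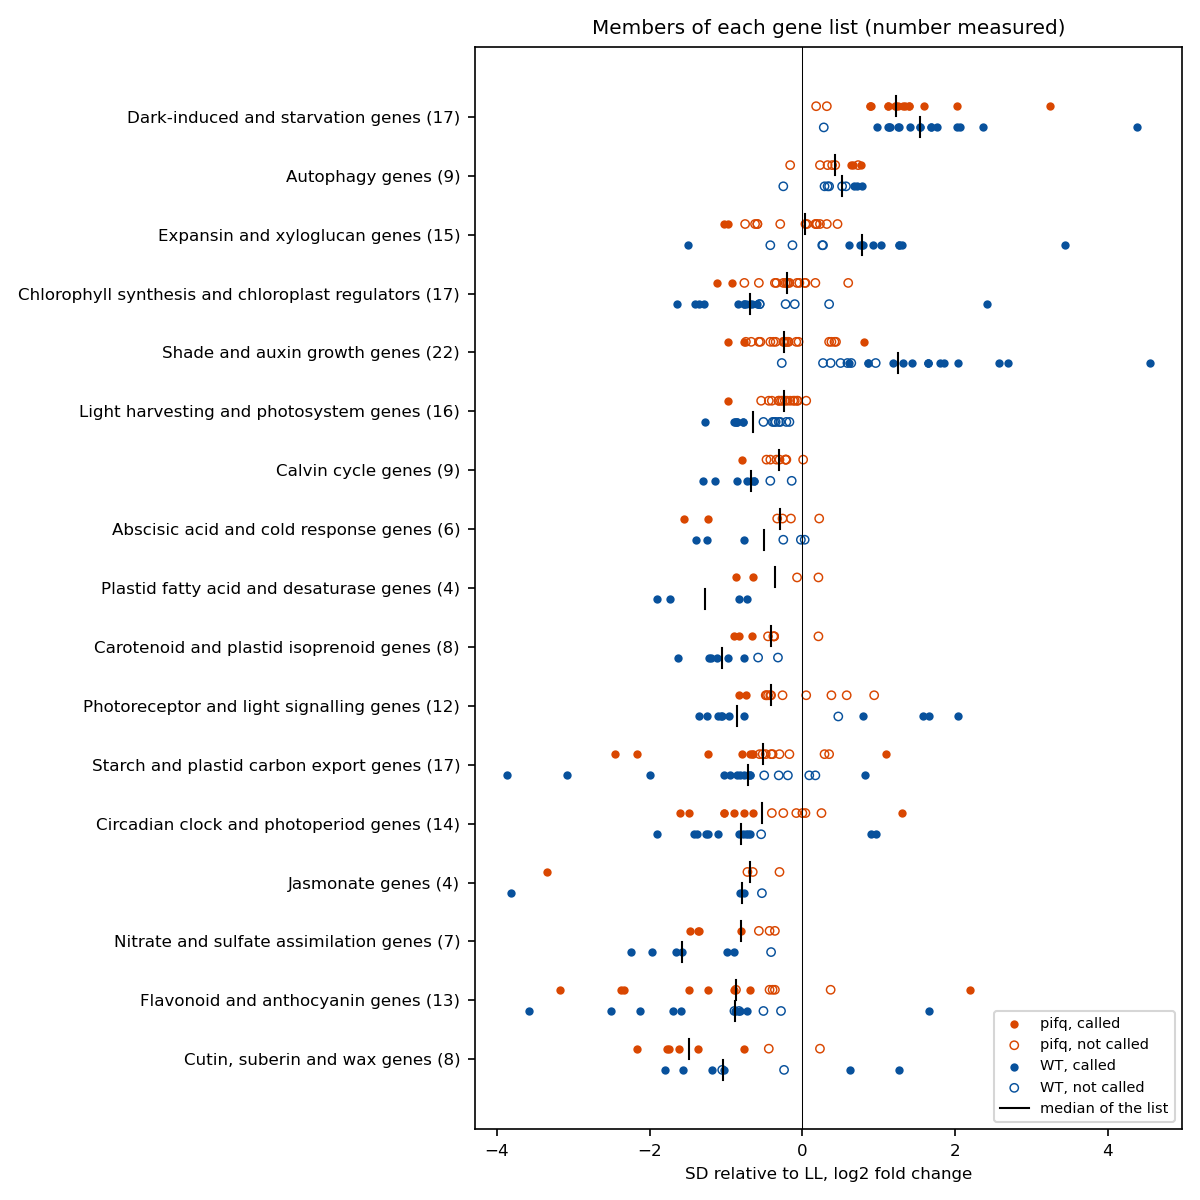
Log2 fold change of SD relative to LL (horizontal axis) of each measured member of 17 gene lists, in *pifq* (orange) and WT (blue), filled where called and with a black bar at the median of the list. Starvation genes rose and flavonoid genes fell in both genotypes, and the medians of the growth lists were 1.25 and 0.78 in WT against -0.24 and 0.04 in *pifq*.

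Most measured growth genes rose in WT, and few passed the test in *pifq*. Of 22 measured genes of shade and auxin growth, 1 rose, 2 fell and 19 did not pass in *pifq* (median -0.24), against 15 rises and no fall in WT (median 1.25). The difference was called for 7 of the 22 and had an unadjusted p under 0.05 for 20 (2507 of 38113 over all tested probe sets), all with the lower value in *pifq*. The platform annotation named 5 of the 22, and the rest were named through the data sheet of the study. That sheet lists genes that the authors had called between WT SD and WT LL or between *pifq* SD and WT SD. The counts of WT rises and of differences are therefore favoured by how the members were named. The 1 rise was that of *ST2A* (AT5G07010), a sulfotransferase acting on hydroxyjasmonate. It had 6.0, 6.08 and 6.22 in *pifq* SD and 5.13, 5.50 and 5.23 in *pifq* LL (log2 fold change 0.81 ± 0.16, adjusted p = 0.0192), beside 10.30, 9.82 and 9.86 in WT SD and 5.50, 5.26 and 5.56 in WT LL (4.55). The SD arrays of both genotypes were above their LL arrays, and the response was smaller in *pifq* by 3.74 (95% confidence interval of the difference -4.25 to -3.24, adjusted p = 0.000196). *PRE1* (AT5G39860), a growth-promoting helix-loop-helix protein, fell with -0.98 (adjusted p = 0.0276; 0.64 in WT, difference not called at adjusted p = 0.0897). *CKX5* (AT1G75450), a cytokinin oxidase, had 5.79, 5.55 and 5.64 in *pifq* SD and 5.77, 5.83 and 6.0 in *pifq* LL, with a change of -0.21 (adjusted p = 0.379) beside 1.85 in WT (difference -2.06, adjusted p = 0.00133). *HB-2* (difference -2.83), *HB4* (-2.0), *PIL1* (-3.42) and *IAA29* (-2.60), all known from shade responses, were not called in *pifq*. There *PIL1* had the largest uncalled change of the list (-0.74, adjusted p = 0.275), followed by *YUC2* (-0.67, adjusted p = 0.106). The *pifq* SD and LL means of *HB4* (4.63 and 4.98) and *IAA29* (3.87 and 4.42) lay under 5.22, the background control median. Whether these signals were above background was not tested. The call of *ST2A* in *pifq* was lost without any of 4 arrays (0.0542 to 0.0764) and that of *PRE1* without any of 4 (0.086 to 0.0949), both were lost with the *pifq* arrays alone (0.105 and 0.161), and the difference was lost for *HB4* without any of 3 arrays (0.0566 to 0.0657) and for *HB-2*, *PIL1* and *IAA29* without any of 11 (0.0505 to 0.126).

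Of 15 measured expansin and xyloglucan genes, whose products loosen or rebuild the cell wall, 2 fell and none rose in *pifq* (median 0.04), against 10 rises and 1 fall in WT (median 0.78). The platform annotation named 9 of the 15, and the rest were named through the data sheet, with the same limit. *XTH15* (AT4G14130), a xyloglucan endotransglucosylase, had 8.81, 9.17 and 8.97 in *pifq* SD and 8.53, 8.51 and 8.53 in *pifq* LL. The groups were apart, but the change of 0.46 did not pass (adjusted p = 0.0643). In WT it had 12.30, 12.33 and 12.27 in SD and 8.91, 8.67 and 8.99 in LL, so that the response was smaller in *pifq* by 2.98 (confidence interval of the difference -3.37 to -2.60, adjusted p = 0.000196). *EXPA1* (AT1G69530), in contrast, had 7.45, 7.0 and 7.22 in *pifq* SD and 8.30, 8.27 and 8.18 in *pifq* LL (-1.02 ± 0.14, adjusted p = 0.00362), and fell in WT too (-1.50). *XTH8* had 0.04 beside 1.03 in WT (difference -0.98, adjusted p = 0.038, lost without any of the 12 arrays at 0.0759 to 0.126). The largest changes that did not pass were those of *XTH18* (-0.75, adjusted p = 0.146) and *EXPA4* (-0.62, adjusted p = 0.34), and *EXPA1* was not called with the *pifq* arrays alone (0.0691).

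Over all tested probe sets, the response differed between *pifq* and WT for 58 (0.152%), with the lower value in *pifq* for 52 (0.136%) and the higher for 6 (0.0157%), and at an unadjusted p under 0.05 for 2507. The size of the excess of lower values depended on the fit. With an intensity trend in the variance 132 were lower and 74 higher. Without probe sets under 4 on the log2 scale 97 were lower and 47 higher. Members of both growth lists made up 10 of the 58. Both *pifq* group means lay under the background control median of 5.22 for 12 of the 58, beside 50.6% of all tested probe sets. Of the 58, 37 were called in WT and not in *pifq*, 16 in both and 5 in *pifq* and not in WT. Of the 437 probe sets called in *pifq* and not in WT (212 higher, 225 lower), 362 had the same sign in WT, 182 had an unadjusted p under 0.05 for the difference, and 5 passed. A count of genes that responded in *pifq* alone therefore cannot be read from the 437. The 58 all have gene names, and the data sheet that named many of them lists genes that differ between *pifq* SD and WT SD, which are arrays of this difference.

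The 5 were all falls, and none was a rise. *KCS1* (AT1G01120), a fatty acid elongase of cuticular wax, had 5.34, 5.0 and 5.23 in *pifq* SD and 7.12, 6.85 and 6.90 in *pifq* LL (log2 fold change -1.77 ± 0.14, adjusted p = 0.000234). Its WT signals were 6.83, 6.48 and 6.84 in SD and 6.85, 6.95 and 7.06 in LL (-0.24, adjusted p = 0.436). The *pifq* SD arrays were more than 1 log2 unit below the 9 others, which lay close together, and the difference of the responses was -1.53 (confidence interval -1.98 to -1.08, adjusted p = 0.0274). *BDG1* (AT1G64670), the BODYGUARD protein needed for an intact cuticle, had 7.17, 6.67 and 7.08 in *pifq* SD and 8.39, 8.56 and 8.66 in *pifq* LL (-1.56 ± 0.14, adjusted p = 0.000386). In WT it had 8.45, 8.47 and 8.31 in SD and 8.77, 8.59 and 8.69 in LL (-0.27), and the difference was -1.29 (adjusted p = 0.0498). The pattern was that of *KCS1*, with the *pifq* SD arrays below all others. *CYS2* (AT2G31980), a cysteine protease inhibitor, had -1.23 in *pifq* and -0.01 in WT (difference -1.22, adjusted p = 0.0441). *AGP21*, an arabinogalactan protein, had -0.89 and 0.37 (difference -1.26, adjusted p = 0.038), and *RCI2A*, a small membrane protein of the cold response, had -0.84 and 0.38 (difference -1.22, adjusted p = 0.0291). The differences are close to the threshold: those of *BDG1*, *CYS2*, *AGP21* and *RCI2A* were lost without any 1 of the 12 arrays and that of *KCS1* without any of 10 (0.0505 to 0.173). In *pifq* itself the calls of *KCS1*, *BDG1* and *CYS2* remained with the *pifq* arrays alone, and those of *AGP21* and *RCI2A* did not (0.0924 and 0.0718).

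Called changes in opposite directions were found for 10 probe sets, which are named here after their values were seen. *PRP2*, *EXPA8*, *IAA19*, *KDR*, *AT5G18030*, *COR413IM1*, *CYP86A4* and *AT5G41900* fell in *pifq* and rose in WT. *EXPA8* (AT2G40610), an expansin, had 8.41, 7.82 and 7.99 in *pifq* SD and 8.89, 9.07 and 9.16 in *pifq* LL (log2 fold change -0.97 ± 0.15, adjusted p = 0.00627), and 9.99, 10.07 and 9.97 in WT SD and 9.35, 9.35 and 9.51 in WT LL (0.61, adjusted p = 0.0319). *PRP2* (AT2G21140), a proline-rich cell wall protein, had 7.70, 7.79 and 7.78 in *pifq* SD and 8.52, 8.50 and 8.44 in *pifq* LL (-0.73 ± 0.12, adjusted p = 0.00764), and 9.90, 9.58 and 9.48 in WT SD and 8.65, 8.62 and 8.71 in WT LL (0.99). For both genes the LL arrays of both genotypes lay between the SD arrays of *pifq*, which were lower, and those of WT, which were higher. *IAA19* (AT3G15540), an auxin-induced repressor of auxin signalling, had 3.41, 3.06 and 3.25 in *pifq* SD and 3.60, 4.17 and 4.23 in *pifq* LL (-0.76, adjusted p = 0.0372), beside 1.64 in WT. *AT5G18030*, of the auxin-responsive SAUR family with close copies beside it, had -1.48 beside 1.20, and *KDR*, a helix-loop-helix protein related to *PRE1*, had -0.80 beside 0.83. *COR413IM1*, a chloroplast envelope protein of the cold response, had -0.93 beside 1.26, *AT5G41900*, annotated as a hydrolase, -0.76 beside 0.93, and the fatty acid hydroxylase gene *CYP86A4* -0.76 beside 0.62. The reverse was found for *RPP5* (AT4G16950), a disease resistance gene in a cluster of close copies, with 6.44, 7.11 and 6.67 in *pifq* SD and 5.68, 5.79 and 5.87 in *pifq* LL (0.96, adjusted p = 0.0102) beside -0.64 in WT, and for *AT4G27300* (0.76 beside -0.63). The difference was called for all 10 but *AT4G27300* (1.39, adjusted p = 0.0709). The *pifq* calls of *IAA19* and *COR413IM1* were lost without any of 10 arrays, of *AT5G41900* without any of 11, of *AT4G27300* without any of 6, of *CYP86A4* without any of 4 and of *KDR* without 1 (0.05 to 0.126), and with the *pifq* arrays alone none of the 10 was called (0.082 to 0.218). The call of the difference held without each array in turn for *PRP2*; it was lost without any of 2 arrays for *IAA19* (0.0538 to 0.0557), and without any of 8 for *KDR* up to any of 12 for *CYP86A4* for the other 7 (0.0505 to 0.159).

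The other genes ranked first by adjusted p for the difference had a WT response that was larger, or of the opposite sign without a *pifq* call. *AFP3* (AT3G29575), a protein that binds ABI5 of abscisic acid signalling, had 6.03, 6.14 and 5.97 in *pifq* SD and 6.51, 6.52 and 6.57 in *pifq* LL (log2 fold change -0.48, below the fold) beside 1.34 in WT (difference -1.82, adjusted p = 0.00133). Genes that fell less in *pifq* were *AT3G44970*, annotated as a cytochrome P450, with 8.89, 8.61 and 8.81 in *pifq* SD and 9.93, 9.87 and 9.84 in *pifq* LL (-1.10 beside -2.82 in WT, difference 1.71, adjusted p = 0.00793), and *FRO6*, a ferric reductase of green tissue (-0.74 beside -2.66, difference 1.92, adjusted p = 0.0228). *FADA*, a desaturase of plastid lipids (-0.65 beside -1.90, difference 1.26, adjusted p = 0.0243), and *AT4G12830*, annotated as a hydrolase (-0.87 beside -2.05, difference 1.18, adjusted p = 0.0361), behaved alike. All 4 fell in both genotypes, and each fell less in *pifq*. The difference of *XTH15*, *ST2A*, *CKX5*, *AFP3*, *PRP2* and *AT3G44970* was called without each of the 12 arrays in turn, and that of *FRO6*, *FADA* and *AT4G12830* was lost without any of 10, 11 and 12 (0.0505 to 0.126). The fall of *FRO6* in *pifq* was itself lost without any of 10 arrays (0.0538 to 0.137), and with the *pifq* arrays alone those of *FRO6*, *FADA* and *AT4G12830* were lost (0.0758 to 0.137).

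**Figure D4:**
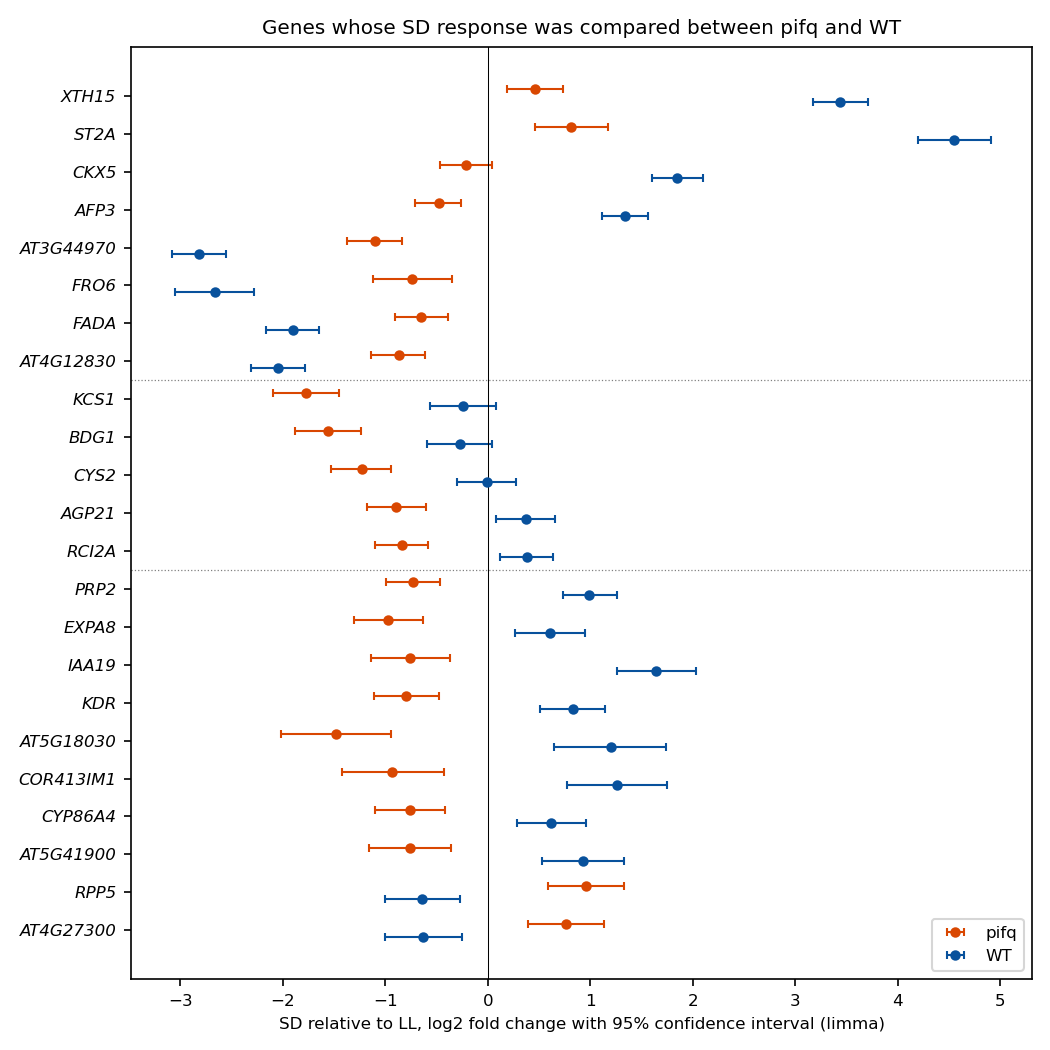
Log2 fold change of SD relative to LL with its 95% confidence interval (horizontal axis) in *pifq* (orange) and WT (blue) for 23 genes. The upper block holds genes ranked first by adjusted p for the difference, the middle block the 5 called in *pifq* and for the difference but not in WT, and the lower block the 10 called in opposite directions, whose intervals lie on opposite sides of 0.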

How the data were processed

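Values are log2 signals that, per the labels, the authors made with RMA, which corrects background, normalizes arrays by quantiles and summarizes probes; the sources used here do not give its version or a genome build. The study's own calls came from Rosetta Resolver, so that calls here come from another test. The table has 38408 probe sets and no detection values, so that dim probe sets were not filtered out. Array medians were 5.00 to 5.12, and no further scaling was applied. Probe sets were named by the platform annotation (16528) or by the locus column of the study's data sheet, which is held in part (1028). Several genes share 759 probe sets, 20557 have no single name, and the brightest probe set stands for a gene.

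limma 3.58.1 in R 4.3.3 fitted 1 mean per group to 12 arrays, with p adjusted over 38113 probe sets by Benjamini-Hochberg. Contrasts were *pifq* SD minus *pifq* LL, WT SD minus WT LL, and their difference, *pifq* minus WT. Replicates are labelled biological, and their number of 3 limits the precision. The fit was run on simulated data with independent noise for each probe set and known changes in *pifq* SD. The simulated arrays had no shared deviations and no outlying array, so that the run cannot show how the fit copes with these. Tables and figures were made in Python 3.11.15 (pandas 2.3.3; matplotlib 3.10.9; numpy 2.4.6).

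The genes named are the 10 largest named rises and falls with arrays apart; for each list, up to 4 called members by smallest adjusted p, 1 of the other direction, and 1 or 2 uncalled members with the largest change; the 5 top-ranked genes of each sign for the difference, by adjusted p; up to 5 of each sign called in *pifq* and for the difference but not in WT; and 3 *PIF* genes. The list members that the text gives beyond these were added for completeness. The members and lists were chosen with earlier results of these data known. Lists are described by counts and medians and were not tested as sets; 1 list is not reported here. Replicate numbers were not used as pairs. Promoter motifs and sequences were not analysed here.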

Additional observations from a re-analysis of the deposited data

Results flagged for a closer look

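The genotypes differed in their SD response by the test of the difference itself (limma, Benjamini-Hochberg adjusted p under 0.05) for 28 genes among those named or listed. The difference is *pifq* minus WT on the log2 scale. It was lower in *pifq* for *ST2A* (-3.74), *PIL1* (-3.42), *XTH15* (-2.98), *HB-2* (-2.83), *AT5G18030* (-2.67), *IAA29* (-2.60), *IAA19* (-2.40), *CKX5* (-2.06), *HB4* (-2.0), *PRP2* (-1.72), *KDR* (-1.62), *EXPA8* (-1.58) and *XTH8* (-0.98), for *KCS1* (-1.53), *CYP86A4* (-1.38) and *BDG1* (-1.29), and for *COR413IM1* (-2.19), *AFP3* (-1.82), *AT5G41900* (-1.69), *FHL* (-1.66), *AGP21* (-1.26), *RCI2A* (-1.22) and *CYS2* (-1.22). It was higher for *FRO6* (1.92), *AT3G44970* (1.71), *RPP5* (1.59), *FADA* (1.26) and *AT4G12830* (1.18). The other 30 probe sets that passed were lower in *pifq* for 29. Groups of 3 arrays are too small for a test of single outlying arrays.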

How the results depend on the processing

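All counts are of called probe sets. The count in *pifq*, 1398, fell to 189 with the 6 *pifq* arrays alone and to 480 at 2 fold or more, and ranged from 834 to 1367 without each of the 12 arrays in turn. The count in WT, 2513, fell to 940 at 2 fold or more (1918 to 2641 without 1 array). The 951 probe sets called in both genotypes in the same direction became 165 with each genotype fitted alone and 335 at 2 fold or more (650 to 905 without 1 array). The 58 called for the difference became 206 with an intensity trend in the variance, 144 without probe sets under 4 on the log2 scale, 33 with a replicate block (20 lower and 13 higher in *pifq*, against 52 and 6), and, as alternatives chosen after seeing the data, 104 without a run of 7083 unnamed, mostly dim probe sets and 162 with named probe sets only (6 to 26 without 1 array). With 1 of each group of identical probe sets kept, 1521 were called in *pifq*, 2589 in WT and 85 for the difference. The cause of these shifts was not tested. The named probe sets include those named by the data sheet of the study, which lists genes that the authors had called. Median centring gave 767 rises and 629 falls in *pifq* in place of 682 and 716, which moves the share of rises by over 5 percentage points. Of 101 genes called in *pifq* and named or listed, none changed direction under any alternative, and 78 to 96 stayed called without 1 array, 36 with the *pifq* arrays alone and 94 with the replicate block.

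Deviations of *pifq* SD and LL arrays with the same replicate number correlated by 0.0378, -0.0308 and -0.0664, and those of *pifq* SD and WT SD arrays by 0.147, 0.348 and 0.0805 (*pifq* LL and WT LL by 0.00288, -0.0442 and 0.0546). Since not every pair exceeded 0.1 and not every array correlated best with its own number, the numbers were not read as pairs. All SD pairs of *pifq* and WT were positive, however, and the labels do not say whether these arrays shared a harvest. The replicate block fits an effect common to SD and LL, so that it cannot take out deviations shared among SD arrays only. With the replicate block 1299 probe sets were called in *pifq*, 2455 in WT and 892 in both. Of the 28 named or listed genes whose difference was called, 15 stayed called with the block, and *AGP21*, *AT4G12830*, *AT5G18030*, *AT5G41900*, *BDG1*, *COR413IM1*, *CYP86A4*, *CYS2*, *EXPA8*, *FADA*, *RCI2A*, *RPP5* and *XTH8* did not (adjusted p 0.05 to 0.112). Restricting the fit to the arrays compared could not be done for the difference, which uses all 12, and promoter motifs could not be examined.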
